A study of Mus musculus with 12 samples.

Results

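Ier2, Fos, Fosb, Jun, Junb, Egr1, Btg2, Dusp1, Gadd45g and Atf3 are immediate early and stress response genes, and they were followed here across parts of the embryonic mouse cerebral cortex. They were chosen by gene symbol, as all probe sets that the platform annotation pairs with 1 of these 10 symbols: 10 of the 8251 genes on the array, with 15 of its 12422 probe sets. The tissue was cerebral cortex of mouse embryos of stage E16.5, hybridised to Affymetrix oligonucleotide arrays. The hemisphere was divided into medial, dorsal, ventral, rostral and occipital pieces, and the whole hemisphere was the sixth group, with 2 arrays per group and 12 in all. No genotype, strain, sex, treatment or pooling of embryos is given in the sources used here. The piece called rostral here, as in the sample titles, has no counterpart in the protocol, which speaks of a lateral one. The labels state that repeats came from independent dissections and number the arrays of each group 1 and 2. They do not say that arrays with the same number in different groups came from the same embryos or the same day, so p-values measure the spread between these arrays.

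Immediate early genes are transcribed within minutes of a stimulus, without new protein synthesis, because kinase signals activate factors such as SRF and CREB that already sit at their promoters. Fos, Fosb, Jun, Junb and Atf3 encode leucine zipper proteins that bind DNA as dimers, and Egr1 encodes a zinc finger factor. Dusp1 encodes a phosphatase that switches off MAP kinases. Ier2 encodes a small nuclear protein. Btg2 and Gadd45g restrain the cell cycle, and in the embryonic cortex both are known from progenitors about to produce neurons. Handling of tissue, lack of oxygen and neuronal firing are also known to induce genes of this kind in brain. The members were therefore described both between pieces of the hemisphere and between the replicate numbers.

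The RefSeq promoter table (GRCm38.p6) held 8 of the 10 members, all but Ier2 and Egr1. The 250 bases before the start were searched on both strands for the CREB site TGACGTCA, its core TGACG (which lies inside the full site), the AP-1 site TGANTCA, the heat shock pair GAANNTTC and the CArG box bound by SRF. The full CREB site was in the promoters of Btg2 and Dusp1, and in 1.55% of the 32851 promoters of the table. The core without the full site was in those of Fos, Fosb, Junb and Atf3 (17.8% of all promoters held the core), and the heat shock pair was in that of Jun (6.69% of all). The letters of the AP-1 site (6.75% of all) and the CArG box (1.47% of all) were in none of the 8 windows. Sites further upstream than 250 bases were not searched, so a gene may have them there. The promoters below are those of the members with the full site and of Gadd45g, the member with the largest share of its spread between groups. Capitals mark the full site or its core, and Gadd45g has neither.
Btg2, chr1:134079156-134079405, minus strand: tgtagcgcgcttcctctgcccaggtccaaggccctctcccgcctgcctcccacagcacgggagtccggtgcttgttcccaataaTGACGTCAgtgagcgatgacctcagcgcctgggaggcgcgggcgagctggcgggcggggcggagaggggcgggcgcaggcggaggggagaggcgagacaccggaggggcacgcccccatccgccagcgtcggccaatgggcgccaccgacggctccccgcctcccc
Dusp1, chr17:26508473-26508722, minus strand: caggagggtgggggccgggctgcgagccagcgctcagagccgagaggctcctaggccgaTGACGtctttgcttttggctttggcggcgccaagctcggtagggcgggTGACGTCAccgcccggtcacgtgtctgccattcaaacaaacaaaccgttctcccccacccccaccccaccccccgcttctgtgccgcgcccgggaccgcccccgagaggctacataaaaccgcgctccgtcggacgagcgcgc
Gadd45g, chr13:51846425-51846674, plus strand: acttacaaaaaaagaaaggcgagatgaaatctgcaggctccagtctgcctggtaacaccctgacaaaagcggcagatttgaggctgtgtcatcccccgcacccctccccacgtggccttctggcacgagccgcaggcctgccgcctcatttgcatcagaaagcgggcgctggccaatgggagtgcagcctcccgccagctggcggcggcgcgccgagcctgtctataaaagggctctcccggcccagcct
A match of letters is a description of the sequence and does not show that a factor was bound.

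Levels are given as the average difference: the signal of probes that match the mRNA minus that of paired probes with a mismatched base, averaged over a probe set, on a linear scale that can go below 0. Negative values are noise, and their root mean square, 693.5, served as the floor. On each array 39.1% to 41.7% of probe sets exceeded this floor 2 times over. All 11 markers of cortical progenitors and neurons on the array passed the filter described below. The 5' to 3' ratio of beta-actin, which falls when cDNA is short, ranged from 0.604 to 0.831 at replicate 1 and from 0.804 to 0.887 at replicate 2. Levels of different genes are not compared, because probe sets differ in their response.

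A probe set was tested if 2 or more arrays read above 1387, or 2 times the floor. Of the 15 probe sets of the members 6 were tested, those of Ier2, Fosb, Jun, Btg2, Dusp1 and Gadd45g, and 9 were not. Fos, the gene most used as a sign of recent stimulation, was not above the floor on any array. Its probe set for the mRNA had values from 128 to 683 with a median of 304, the highest on ventral replicate 2, and its other probe set had values from -109 to 157. Atf3 was below the floor on all arrays with each of its 3 probe sets, 1 of which was negative on all 12. Junb has a probe set that was below the floor on every array (-709.6 to 333) and another that ran from -2482 to 1519 with 7 negative values, so it gave no usable level. Letters i, r and f in the names of such probe sets mark designs with fewer probes, relaxed rules or probes shared by a sequence family. The signals of the Fos and Atf3 probe sets were thus within or below the noise of the array, in each piece and at each replicate number. How well these probe sets respond to their mRNAs was not tested, so the values set no bound on the mRNA. A brief or weak induction was not detectable at this level.

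**Figure D1:**
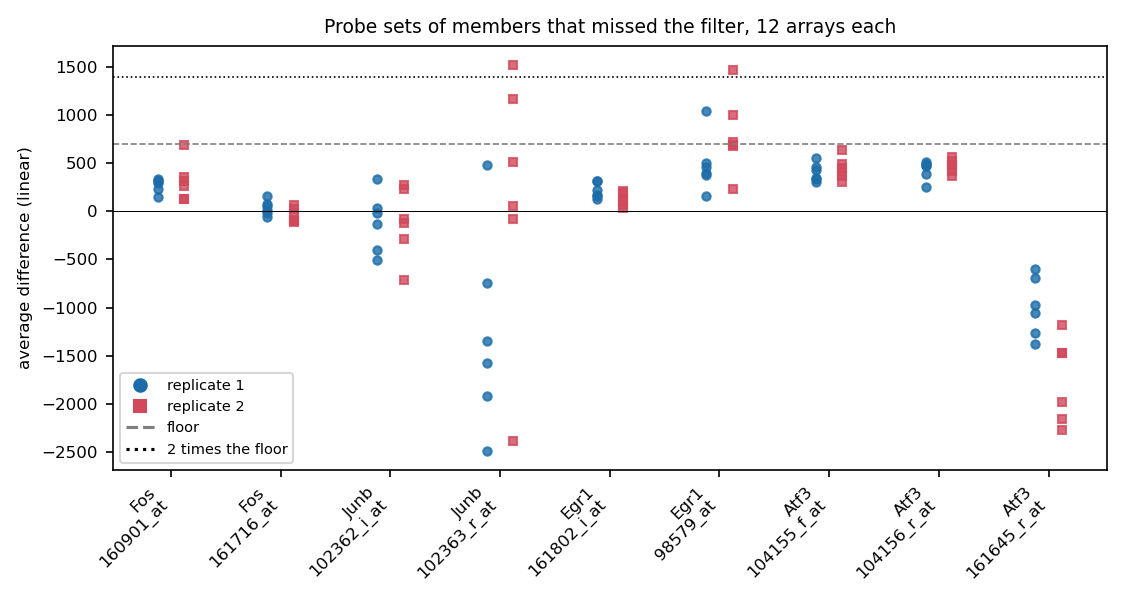
Average difference (linear scale) on each of the 12 arrays for the 9 probe sets of Fos, Junb, Egr1 and Atf3 that missed the filter; circles are replicate 1 and squares replicate 2, the dashed line is the floor of 693.5 and the dotted line 1387. The Fos and Atf3 probe sets lie below the floor on all arrays, while the longer-ranged Egr1 probe set reaches 1460 on ventral replicate 2.

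Egr1 lay near the floor and was highest in the ventral piece. Its probe set for the mRNA read 1041 and 1460 in the ventral piece. The occipital arrays read 378 and 995.5, the rostral arrays 504 and 719.6, the hemisphere arrays 455 and 683, the dorsal arrays 155 and 680, and the medial arrays 395 and 225. The ventral arrays did not overlap those of any other group, but 4 of the 12 arrays were above the floor. For 24.4% of all tested probe sets the ventral arrays did not overlap the 8 of the other regions. It missed the filter with 1 array above 1387, so it was not part of the main test. Without the filter its ventral difference in limma was 0.76 ± 0.16 SE on the log2 scale (adjusted p = 0.0646), which did not pass and, with 6 of the 8 other arrays at the floor, depends on the floor. Its other probe set read 31.6 to 314.

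Ier2 and Gadd45g were highest in the medial piece, which borders the midline, and lowest in the ventral piece. These were the members that differed among the 5 regions: 2 of the 6 tested passed limma's F-test (adjusted p = 0.0367 for Ier2 and 0.0088 for Gadd45g), where 3.26% of all 5832 tested probe sets passed. Ier2 read 4448 and 3327 in the medial piece (replicates 1 and 2). It read 2588 and 2062 in the rostral, 2458 and 1814 in the dorsal, and 2102 and 1644 in the occipital piece. The whole hemisphere read 1622 and 1755, and the ventral piece 1274 and 869. Each medial array was above all other arrays and each ventral array below them, while rostral, dorsal and occipital arrays overlapped their neighbours in this order.

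Against the mean of the other 4 regions, Ier2 was 2.19-fold higher in the medial piece, at 3888 ± 793 (SD, n = 2) against 1851 ± 581 (SD, n = 8; log2 1.13 ± 0.21 SE, limma adjusted p = 0.0437). Within the replicate numbers the medial difference was 1.13 and 1.13. Of the 6 tested members 2 rose there, Ier2 and Gadd45g, where 0.514% of all probe sets rose, and 0 fell, where 0.754% of all fell (1.27% in either direction). The medial arrays of the same 2 members did not overlap the 8 others, as was so for 10.4% of all probe sets. In the ventral piece Ier2 was 2.31-fold lower, at 1071 ± 286 (SD, n = 2) against 2555 ± 927 (SD, n = 8; log2 -1.21 ± 0.21 SE, limma adjusted p = 0.00926), and the differences within the replicate numbers were -1.12 and -1.29. Of the 6 members 2 fell in the ventral piece, the same pair, where 5.54% of all probe sets fell, and 0 rose, where 4.25% of all rose (9.79% in either direction). The medial and ventral comparisons share arrays, since each piece is in the reference of the other. The size of the medial difference of Ier2 stayed between 0.92 and 1.34 when arrays were left out singly. Its call is narrow, since it was lost without any 1 of the 10 arrays of the regions (adjusted p = 0.0587 to 0.33), and with the ventral piece left out of the reference it was 0.88 (adjusted p = 0.26). The ventral call of Ier2 was lost without ventral replicate 2 (log2 -0.93, adjusted p = 0.125).

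**Figure D2:**
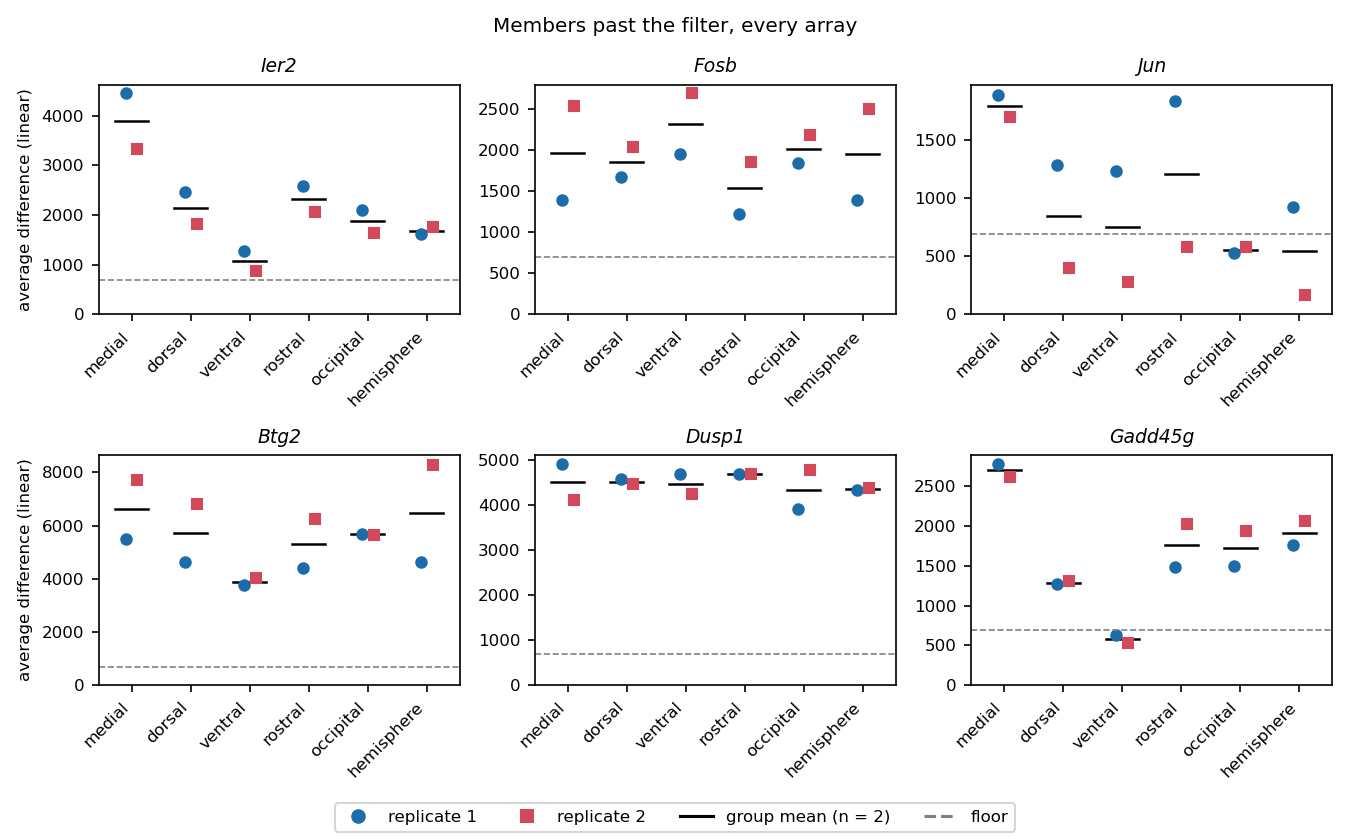
Average difference (linear scale) of the 6 members past the filter on every array, by group; circles are replicate 1, squares replicate 2, bars the mean of the 2 arrays and the dashed line the floor of 693.5. Ier2 and Gadd45g are highest in the medial and lowest in the ventral piece on both arrays, Fosb is higher on the replicate 2 array of every group, and Dusp1 is nearly level.

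Gadd45g separated the groups most cleanly. It read 2782.5 and 2619.5 in the medial piece, 1763 and 2069 in the whole hemisphere, 1488 and 2026 in the rostral piece and 1496 and 1942 in the occipital piece. The dorsal arrays read 1266 and 1309, and the ventral arrays 628 and 534. The medial arrays were above all others, the dorsal arrays lay between the occipital and the ventral ones without overlap, and the ventral arrays were the only 2 below the floor. The arrays of the hemisphere, rostral and occipital groups overlapped. In the medial piece Gadd45g averaged 2701 ± 115 (SD, n = 2) against 1336 ± 540 (SD, n = 8), which is 2.12-fold higher with the 2 ventral arrays of the reference at the floor (limma log2 difference 1.08 ± 0.16 SE, adjusted p = 0.0211). In the ventral piece its mean was 581 ± 66.5 (SD, n = 2), and 1866 ± 584 (SD, n = 8) elsewhere; with the ventral arrays at the floor it was at least 2.58-fold lower (log2 -1.37 ± 0.16 SE, limma adjusted p = 0.00195). The medial differences within the replicate numbers were 1.23 and 0.93, and the ventral ones -1.27 and -1.47.

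The ventral call of Gadd45g held whichever single array was left out (adjusted p = 0.00255 to 0.0392). Its medial call was lost without either medial, dorsal or ventral array (adjusted p = 0.0579 to 0.248, log2 1.04 to 1.13) and with the ventral piece out of the reference (log2 0.79, adjusted p = 0.199). Its F-test was lost without ventral replicate 1 (adjusted p = 0.0994) or 2 (0.0849), and that of Ier2 without any 1 of the 10 arrays of the regions (0.0528 to 0.2).

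Jun and Btg2 did not pass in any regional comparison. Jun was above the floor on 6 of 12 arrays, and on both arrays only in the medial piece, at 1895 and 1704. The rostral arrays read 1837 and 581, the dorsal arrays 1288 and 403, the ventral arrays 1234 and 276, the hemisphere arrays 927 and 168, and the occipital arrays 532 and 580. The medial difference of Jun was 0.98 ± 0.37 SE on the log2 scale (adjusted p = 0.269), with 5 of the 8 other arrays at the floor. Jun read above 1387 on 3 arrays, both medial ones and rostral replicate 1, so it passed the filter only through the medial piece. Its medial comparison is therefore not independent of the filter. The arrays numbered 1 were the high ones in the dorsal, ventral, rostral and hemisphere groups, so the group means of Jun average unlike values.

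Btg2, an antiproliferative gene, read 3746 and 4023 in the ventral piece, below every other array. It read 5506 and 7721 in the medial, 4613 and 6821 in the dorsal, 4386 and 6248 in the rostral, 5678 and 5654.5 in the occipital piece, and 4645 and 8279 in the hemisphere. The groups other than ventral overlapped. The ventral difference was -0.56 ± 0.25 SE (limma adjusted p = 0.228); ventral arrays did not overlap the 8 others for 3 of the 6 members (Ier2, Gadd45g and Btg2) and for 24.4% of all probe sets. The differences within the replicate numbers were -0.42 and -0.71.

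Dusp1 and Fosb showed no regional call. Dusp1 lay between 3908 and 4912 on the 12 arrays, a range of 0.33 on the log2 scale. Its lowest arrays were occipital replicate 1 (3908) and medial replicate 2 (4115), and its highest medial replicate 1 (4912) and occipital replicate 2 (4784). Its medial and ventral differences were -0.0035 and -0.011, each with an SE of 0.13, in limma (adjusted p = 0.995 and 0.971). Fosb had group means from 1540 in the rostral to 2325 in the ventral piece, and every neighbouring pair of groups in this order overlapped. Its ventral difference was 0.35 ± 0.30 SE (adjusted p = 0.555).

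**Figure D3:**
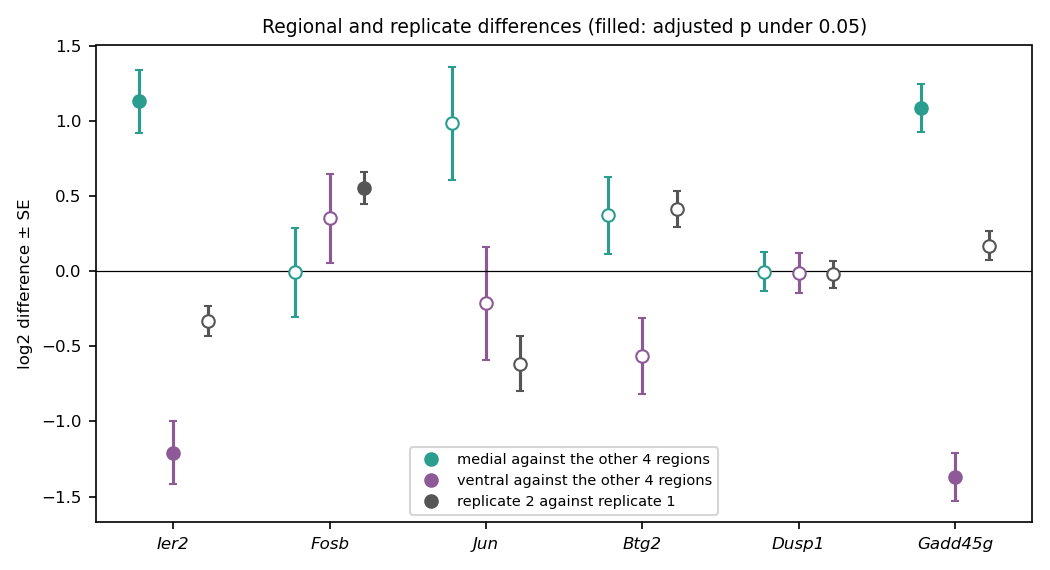
Log2 difference with its standard error from limma for the 6 tested members: medial against the other regions, ventral against the other regions, and replicate 2 against replicate 1; filled circles passed at an adjusted p of 0.05. The medial and ventral differences of Ier2 and Gadd45g passed, and of the replicate differences that of Fosb.

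Fosb was higher on the arrays numbered 2 than on those numbered 1 in all 6 groups. It read 1396 and 2536 in the medial piece, 1670.3 and 2034 in the dorsal, 1949.8 and 2699 in the ventral, 1223 and 1857 in the rostral, 1842 and 2188 in the occipital piece, and 1395 and 2506 in the hemisphere. The arrays numbered 1 averaged 1579 ± 286 and those numbered 2 averaged 2303 ± 328 (SD, n = 6 each), and their ranges overlapped. The difference within groups was 0.55 ± 0.11 SE, or 1.47-fold (limma adjusted p = 0.0191), and an exact permutation test of the 6 differences gave p = 0.0312, the smallest it can give. Of the 6 tested members 1 rose and 0 fell at replicate 2, where 17.2% of all probe sets passed, 9.77% upward and 7.44% downward. A gene with the same sign in all 6 groups is also frequent, at 25.0% of all probe sets, and 12.6% of all were higher at replicate 2 in all 6. The call of Fosb was lost without either medial array (log2 0.49, adjusted p = 0.0581) or either ventral array (0.57, 0.0523), since leaving out an array removes its pair from this difference.

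Btg2, Jun and Ier2 came close to the threshold between the replicate numbers without passing it. Btg2 differed by 0.42 ± 0.12 SE (limma adjusted p = 0.0505) and was higher at replicate 2 in 5 of 6 groups, with 4762 ± 721 against 6458 ± 1527 (SD, n = 6 each). The exception was the occipital piece, at -0.006. Jun differed by -0.62 ± 0.18 SE (adjusted p = 0.0532). It was lower at replicate 2 in 5 groups, and the occipital difference is 0 because both arrays are at the floor; 5 of the 6 arrays numbered 2 are at the floor, against 1 of the 6 numbered 1, so the size of this difference depends on it. Ier2 differed by -0.33 ± 0.10 SE (adjusted p = 0.0564) and was lower at replicate 2 in the 5 pieces, by -0.55 to -0.33, but 0.11 higher in the hemisphere. The exact permutation test gave p = 0.0625 for each of the 3 genes. Without either occipital array the adjusted p was 0.0293 for Btg2 and 0.0328 for Jun, and without either hemisphere array it was 0.0302 for Ier2. Gadd45g (0.17 ± 0.096 SE) and Dusp1 (-0.021 ± 0.089 SE) did not pass (limma adjusted p = 0.235 and 0.879).

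The members thus did not move in 1 direction between the replicate numbers: Fosb passed upward, Btg2 had a positive value, and Jun and Ier2 had negative values. The beta-actin ratio moved with the number as well, as given above. The same ratio for Gapdh did not, at 0.982 to 1.157 at replicate 1 and 0.979 to 1.143 at replicate 2. Dissection, RNA preparation and hybridisation cannot be told apart in the number, and the part of cDNA length in these differences was not tested.

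The spread of each member over the 12 arrays was divided into the part between the 6 groups, the part between the replicate numbers and the rest, as shares of the sum of squares of log2 values. Gadd45g had 95.6% between groups and 1.86% between replicate numbers. Ier2 had 89.1% and 7.76%, so these genes varied by piece. Fosb had 26.2% and 61.8%, the reverse order. Jun had 55.6% and 27.7%, Btg2 47.9% and 35.5%, and Dusp1 17.5% and 1.27%, the last with 81.2% in neither part. Over all tested probe sets the medians were 47.2% between groups and 16.53% between replicate numbers. These shares describe the 12 arrays and were not tested.

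**Figure D4:**
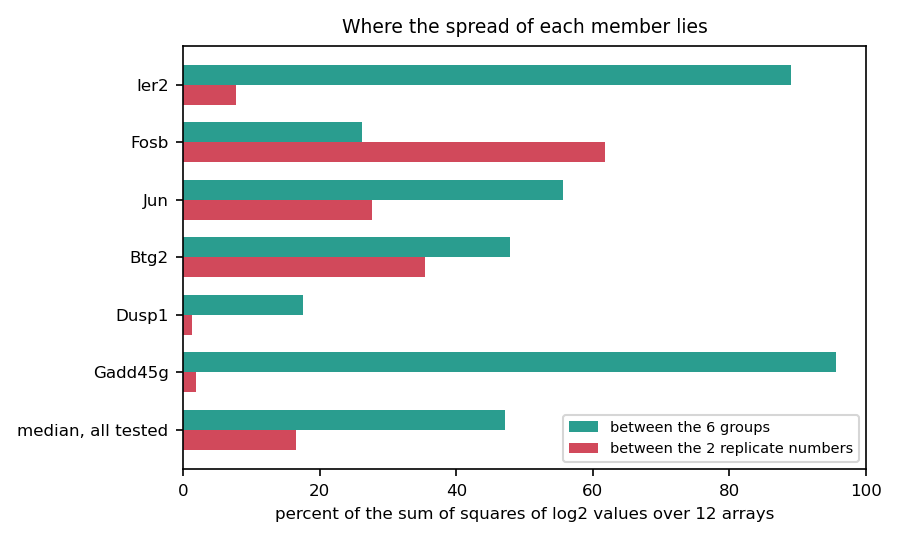
Percent of the sum of squares of log2 values over the 12 arrays that lies between the 6 groups and between the 2 replicate numbers, for the 6 tested members and as the median of all tested probe sets. Gadd45g and Ier2 lie mostly between groups (95.6% and 89.1%), and Fosb mostly between replicate numbers (61.8%).

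The whole hemisphere, which was not cut into pieces, was set against the mean of the 5 pieces. The pieces count equally in this mean, whatever their share of the hemisphere. Cutting and tissue composition therefore cannot be told apart in this comparison. Of the 6 tested members 0 passed in limma, where 0.0% of all probe sets passed, and 1, Gadd45g, had an unadjusted p under 0.05. The share of all probe sets with an unadjusted p under 0.05 was not counted, here or for the lists below. Gadd45g was 0.37 ± 0.16 SE higher in the hemisphere (adjusted p = 0.962), Btg2 differed by 0.22 ± 0.25 SE, and Fosb by -0.015 ± 0.29 SE. Ier2 (-0.29 ± 0.20 SE) and Jun (-0.38 ± 0.37 SE) had lower means in the hemisphere, and Dusp1 differed by -0.044 ± 0.13 SE. These errors leave room for differences of about the size seen between replicate numbers. In the dorsal, rostral and occipital pieces 0 of the 6 members passed against the other regions in limma, and 0 had an unadjusted p under 0.05; 0.274%, 0.0% and 0.0% of all probe sets passed.

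Other immediate early genes gave a mixed picture. Of 32 on the array 16 were tested, and Egr2, Fosl1 and Fosl2 were among those that missed the filter. In the ventral piece 0 rose and 3 fell in limma: Zfp36l1, whose protein destabilises mRNAs (log2 -1.05, adjusted p = 0.0333), Dusp6, a phosphatase specific for ERK (-0.84, adjusted p = 0.0453), and Tob1, a relative of Btg2 (-0.73, adjusted p = 0.0484). Among all probe sets 4.25% rose and 5.54% fell in the ventral piece. The list's median ventral difference was 0.18, against -0.022 over all probe sets. In the medial piece 0 of the 16 passed in limma, where 1.27% of all probe sets passed. There 5 had an unadjusted p under 0.05, some higher and some lower, and the share of all probe sets at that cut was not counted. At replicate 2, 3 rose: the kinase gene Pim1 (1.01, limma adjusted p = 0.0127), the nuclear receptor gene Nr4a1 (0.95, adjusted p = 0.0453, with 5 of the 6 arrays numbered 1 at the floor) and the phosphatase gene Dusp2 (0.43, adjusted p = 0.0191). Zfp36l2 (-0.68, limma adjusted p = 0.0178, with 4 of the 6 arrays numbered 2 at the floor) and Btg1 (-0.32, adjusted p = 0.049) fell. The sizes for Nr4a1 and Zfp36l2 depend on the floor. Among all probe sets 9.77% rose and 7.44% fell at replicate 2. The list's median replicate difference was 0.14, against 0.0029 over all probe sets. Among relatives of the members by symbol, Dusp8 rose in the ventral piece with 1 probe set (0.66) and at replicate 2 with another (0.55), Dusp9 (0.97) and 1 of the 2 tested probe sets of Atf6b (0.50) rose at replicate 2, and Dusp12 (-0.44) fell there, each at an adjusted p under 0.05 in limma. For Atf6b and Dusp8, only 1 of the 2 tested probe sets passed in each of these comparisons, and the other had the same sign. The other of Atf6b differed by 0.16 ± 0.20 SE at replicate 2 (limma adjusted p = 0.588). Those of Dusp8 that did not pass differed by 0.089 ± 0.086 SE at replicate 2 (adjusted p = 0.476) and 0.39 ± 0.29 SE in the ventral piece (adjusted p = 0.501). The call of Dusp9 came from a probe set designed with relaxed rules, and its other probe set, at -206 to 119, missed the filter. Jund, the Jun relative that is expressed without stimulation, read 29320 to 40473 and did not pass in the medial, ventral or replicate comparison (limma adjusted p = 0.968, 0.541 and 0.153).

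Growth arrest and DNA damage genes included 5 tested genes besides Gadd45g, while Gadd45a and Gadd45b missed the filter. Gas1, a growth arrest gene, rose in the medial piece (log2 1.06, limma adjusted p = 0.0211) and fell in the ventral piece (-2.01, adjusted p = 0.000508), the directions that Gadd45g had. At replicate 2 Sesn1 fell (-0.35, limma adjusted p = 0.0288). Ndrg1 fell in the ventral piece (-0.87) and Cdkn1a, the cell cycle inhibitor p21, rose there (1.62, limma adjusted p = 0.00428, with 2 of the 8 other arrays at the floor). Genes of heat shock and chaperones gave 1 call in the ventral piece of 12 tested, a rise of Hspa1b, an inducible chaperone (1.05, limma adjusted p = 0.00316, with 4 of the 8 other arrays at the floor), and 1 at replicate 2, a fall of its partner Dnajb1 (-0.31, adjusted p = 0.0308). Over all probe sets 9.79% passed in the ventral piece and 17.2% at replicate 2, so these counts are near or under the background. Of 13 genes of the integrated stress, oxidative and hypoxia responses, Aldoa (0.69) and Asns (0.84) rose in the ventral piece and Ldha at replicate 2 (0.39, limma adjusted p = 0.0175). Among 13 genes of the signalling that reaches these promoters, Map2k1 (0.75), Map2k2 (0.60) and Prkacb (0.42) rose in the ventral piece; at replicate 2 Map2k4 rose (0.44) and Map2k1 (-0.33) and Atf2 (-0.42) fell. In the medial piece 0 genes of these last 3 lists passed in limma. There 1, 3 and 1 had an unadjusted p under 0.05, a cut for which the share of all probe sets was not counted.

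The medial and ventral differences of Ier2 and Gadd45g ran beside those of neurogenic progenitor and cell cycle genes. Of 9 tested genes of neurogenic progenitors other than the members, 6 fell in the ventral piece and 0 rose in limma, with a median of -1.47, and 1 rose in the medial piece with a median of 0.82. Eomes, a transcription factor of intermediate progenitors, differed by 1.69 in the medial and -2.80 in the ventral piece, and Insm1 and Neurog2 by -2.94 and -2.78 in the ventral piece. Both ventral arrays of Eomes and Neurog2 are at the floor, as are 2 of the 8 arrays that the medial piece of Eomes was set against, so these sizes depend on it. Of 20 cell cycle genes 15 fell in the ventral and 6 rose in the medial piece, with medians of -1.19 and 0.70; Cdk1, the mitotic kinase, differed by -1.91 and 1.31. Over all probe sets 5.54% fell in the ventral and 0.514% rose in the medial piece. These lists were chosen with earlier results of these data known, so their counts are not independent support. From the neurogenic list the cyclin gene Ccnd2 (1.27) and Insm1 (0.61) rose at replicate 2, and Sstr2 (-0.44) fell. From the list of 20 cell cycle genes, which does not hold Ccnd2, 1 rose at replicate 2, Plk1. The median of that list was 0.019, and 9.77% of all probe sets rose at replicate 2. Fewer progenitors in a piece and less mRNA per progenitor cannot be told apart in these bulk samples. The choroid plexus markers, of which Ttr is the only 1 of 3 past the filter, summed to 2822 to 5815 in the medial and 84.2 to 1422 in the ventral piece; their part in the difference was not tested. Microglial markers (4 of 11 past the filter) summed to 7850 to 7879 in the medial and 9201 to 10833 in the ventral piece. Endothelial markers (3 of 9 past the filter) summed to 9593 to 11267 and 11093 to 11323, markers of meninges (3 of 9) to 11604 to 15191 and 12346 to 15575, and those of red blood cells (2 of 6) to 73151 to 81531 and 73561 to 88521; their part was not tested either.

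Over the 12 arrays the log2 values of Ier2 and Gadd45g had Pearson r = 0.77 and Spearman rho = 0.54, and r = 0.81 and 0.89 within the arrays numbered 1 and 2. Btg2 and Gadd45g had r = 0.71 and rho = 0.68, and 0.79 and 0.82 within the numbers. Ier2 and Btg2 had r = 0.40 over all arrays but 0.66 and 0.81 within the numbers. Fosb and Btg2, each with a positive replicate difference, had r = 0.40, and -0.14 and -0.17 within the numbers. These are descriptions over arrays that share a piece or a number. The genes most like Ier2 over the 12 arrays were Sstr2 (r = 0.93, rho = 0.83), Prdx4 (0.93, 0.92) and Ash2l (0.93, 0.94). Those most like Gadd45g were Pnrc2 (0.96, 0.94), Aldoc (0.95, 0.93) and Ccnb2 (0.95, 0.90). Those most like Btg2 were Ncl (0.96, 0.95), Rbfox2 (0.93, 0.92) and Trim28 (0.92, 0.88), and those most like Fosb were Asl (0.94, 0.94), Rnf26 (0.94, 0.95) and Kcnq1 (0.93, 0.87). Those most like Jun were Dxo (0.88, 0.91), Kank3 (0.84, 0.74) and Zkscan14 (0.83, 0.84), and those most like Dusp1 were Tysnd1 (0.86, 0.85), Lta4h (0.82, 0.83) and Txnl4a (0.80, 0.59). With so many probe sets searched, high values arise readily.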

How the data were processed

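Poly(A)+ RNA was copied into biotin-labelled cRNA and hybridised to 12 arrays, per the labels' protocols, although the molecule field of the labels says total RNA. The deposited values are intensities: the authors' average differences, scaled per array before deposit to a common 2% trimmed mean (2501.6 to 2501.9 on the 12 arrays). The labels' text on data analysis breaks off, so software and scaling method are not given in the sources used here. Values under the floor of 693.5 were set to it before log2. Of 12488 probe sets 66 controls were left out, and the 5832 above 1387 on at least 2 arrays were tested with limma 3.58.1 in R 4.3.3, in 1 fit with a mean per group (6 residual and 2.86 prior degrees of freedom). The replicate difference came from a fit with a term for the number added (5 residual and 3 prior). Two-sided p-values were adjusted over the 5832 by the Benjamini-Hochberg method, with a threshold of 0.05. Scripts were tested on simulated data. Gene symbols are those of the platform annotation; RefSeq (GRCm38.p6) changed 0 of the members' symbols. The members and lists were chosen with earlier results of these data known. Named were all members, at most 3 called genes per list and direction, relatives of the members by symbol, and the 3 most like genes. The number of arrays limits the precision. Equal numbers in different groups were not treated as pairs, since no label ties them to 1 dissection. Alternatives were other floors, filters, scales, normalization, variance models and subsets of arrays; a reference without the ventral piece was added after seeing the data.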

Additional observations from a re-analysis of the deposited data

Results flagged for a closer look

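Ier2 stood out for the whole hemisphere in its difference between the replicate numbers. Its log2 difference, replicate 2 minus replicate 1, was 0.11 in the hemisphere and -0.42, -0.44, -0.55, -0.33 and -0.35 in the medial, dorsal, ventral, rostral and occipital pieces. The gap between the hemisphere and the nearest piece, divided by the range of the 6 differences, was 0.663, above Dixon's 95% critical value for 6 values. Chance gives such a gap in about 1 of 20 groups, and 6 members were looked at. Whether the hemisphere differs from the pieces in this respect was not tested, since there is 1 pair of arrays per group.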

How the results depend on the processing

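Counts of members past the threshold were small and changed with the settings. For the test over all regions and for the medial piece the count fell from 2 to 1 with a floor at 0.5 times the main floor, with no filter and with quantile normalization (Gadd45g kept its call) and with a floor at 2 times it (Ier2 kept it; Gadd45g then missed the filter). With the ventral piece out of the reference the medial count was 0. For the ventral piece it was 1 with the doubled floor. Between the replicate numbers the count of 1 became 0 without the filter, 3 with a filter on 6 arrays (Btg2, Fosb, Ier2), 3 with quantile normalization (Fosb, Ier2, Jun), 2 on an arcsinh scale (Fosb, Jun), 2 with trend and robust variances (Btg2, Fosb) and 2 without the hemisphere arrays (Fosb, Ier2). With single arrays left out the counts ran from 0 to 2 for all regions, 0 to 2 for the medial, 1 to 2 for the ventral piece and 0 to 3 between the numbers. The medial and ventral differences of Ier2 and Gadd45g and the replicate differences of Ier2, Fosb, Jun and Btg2 kept their sign under the alternatives run on them; the members' other differences were not followed through the alternatives. The dorsal, rostral, occipital and hemisphere comparisons gave 0 members in every limma alternative. With the replicate block the counts stayed at 2 for all regions, 2 for the medial and 2 for the ventral piece; the count over all probe sets for the test over all regions went from 190 to 442. Replicate differences of the groups correlated at -0.06 (rostral with occipital) to 0.56 across probe sets, above 0.1 for 14 of 15 pairs of groups. Over all probe sets the replicate count of 1004 ran from 174 to 1147 over the alternatives and from 240 to 1119 with an array left out. With an array left out, the counts set beside the members moved further for the regions: from 190 to between 11 and 234 for all regions, from 74 to between 0 and 124 for the medial piece, and from 571 to between 91 and 653 for the ventral piece. The cause of these changes was not tested. Signals near the floor limit what can be said of Fos, Junb, Egr1, Atf3 and Jun.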

Other observations

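Nr4a1 and Ier3, immediate early genes outside the members, were high on a set of arrays that does not follow the pieces. Nr4a1 read 2142 on medial replicate 2, 2193 on ventral replicate 2, 1865 on rostral replicate 2, 1430 on hemisphere replicate 2, and 1626 and 1537 on the occipital replicates 1 and 2. It was 222 to 563 on the other arrays numbered 1 and 702 on dorsal replicate 2. Ier3 read 3742 on medial replicate 2, 3431 on ventral replicate 2, and 2226 and 2307 on the occipital arrays, against 723 to 1143 on the remaining 8. Its replicate difference was 0.97 ± 0.33 SE (limma adjusted p = 0.0759). In each gene occipital replicate 1 sat with the high arrays. That array also had the highest beta-actin ratio of those numbered 1, at 0.831 against 0.604 to 0.775 on the others. Its median over all probe sets was 851, against 737 to 770 on the others numbered 1. The part of array quality in the values of Nr4a1 and Ier3 was not tested. Pim1, a kinase gene, was higher on the array numbered 2 in all 6 groups: 2734 and 6147 in the medial, 4999.6 and 6693 in the dorsal, 3870.3 and 7049 in the ventral, 2229.8 and 7411 in the rostral, 2973 and 5022 in the occipital piece, and 2646 and 5731 in the hemisphere. As many as 12.6% of all tested probe sets were higher at replicate 2 in all 6 groups.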
